A study of Mus musculus with 22 samples.

Results

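The Krüppel-like factors are transcription factors that bind GC-rich and CACCC-type DNA through zinc fingers at the end of the protein. The 10 family members described here are Klf2, Klf3, Klf4, Klf5, Klf6, Klf7, Klf9, Klf10, Klf11 and Klf13. They were chosen by gene symbol from the deposited table of normalized counts, which held all 10 of them among 11208 genes. The table covers 22 RNA-seq libraries of NIH/3T3 cells, an established mouse embryonic fibroblast line. One derived line carried a stably integrated construct from which doxycycline switches on the cell cycle factor E2F1, and the other carried the empty vector (EV). Both lines were starved for 48 h in 0.25% serum before any treatment. The E2F1 line then received 500 ng/ml doxycycline and was sampled at 0, 2, 6 and 12 h, and the EV line received the same dose and was sampled at the same times. A separate set of EV cells received 10% serum in place of the drug and was sampled at 2, 6 and 12 h, with the EV libraries at 0 h as its start. These 11 groups had 2 libraries each. The labels do not say whether the 2 libraries of a group came from separate cultures, so the p-values measure the spread between these libraries, which may be technical. They also do not say how many integrations or clones each line holds. A difference between the lines at 0 h can therefore not be told apart from a difference between integrations, and serum was not given to the E2F1 line.

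Members of the family share nearly the same DNA-binding fingers but differ in the rest of the protein. Klf2, Klf4, Klf5, Klf6 and Klf7 mostly act as activators. Klf3 represses by recruiting CtBP corepressors, and Klf9, Klf10, Klf11 and Klf13 recruit the Sin3 corepressor complex. In fibroblasts several of these genes are known as early responders to growth factors or TGF-beta, and Klf2 and Klf4 are known for holding cells out of the cell cycle.

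The sequences upstream of the start site are shown first, since the members responded to the same 2 stimuli in different ways. RefSeq windows reaching 250 bases upstream on build GRCm38.p6 matched 8 of the 10 genes by symbol, and Klf5 and Klf10 had no entry in the table used. Motifs were sought on both strands. The GC box GGGCGG was present in 7 of 8 member windows and in 32.7% of all 32851 windows of that length. The core CACCC was present in 5 of 8 against 52.0%. None of the 8 held an E2F motif, searched as TTTGGCG, as the variant TTTCCCG and as the variant TTTCGCG (4.57% of all windows). None held the CArG box bound by SRF (1.47%). The AP-1 motif, which is TGAGTCA or read from the other strand TGACTCA, was also in none (4.46%). The CRE motif TGACGTC was found in the Klf13 window alone (2.78% of all windows), and a MEF2 site, which reads as a match on both strands, in that of Klf2 alone (2.92%). GGGCGG and CACCC matches can overlap, as they do in Klf13. The windows are upstream of the RefSeq start. That of Klf7 lay wholly inside the GENCODE M21 gene, and 117 bases of that of Klf3 lay outside its gene. Both were counted in full for the motifs. The member windows, Klf7 aside, held from 59.6% (Klf9) to 78.4% (Klf3) G and C bases, where the median of all windows was 52.4%. How far the share of windows with a GC box follows from base content was not tested. These are matches of letters and say nothing about binding. The windows of 5 genes are printed 5′ to 3′ on the strand of the gene, with matches to any of these motifs in capitals. The window of Klf13 is at chr7:63938916-63939165 (- strand), that of Klf4 at chr4:55532476-55532725 (- strand) and that of Klf9 at chr19:23140976-23141225 (+ strand). The windows of Klf11 at chr12:24651121-24651273 (+ strand) and Klf2 at chr8:72318812-72319032 (+ strand) stop where the GENCODE M21 gene begins, so 221 bases are printed for Klf2 and 153 for Klf11, while the motif counts above used all 250. The 1 CACCC of Klf2 and 2 of the 4 GC boxes of Klf11 lie in the part not printed. Klf13, Klf4 and Klf11 are shown because they were higher after E2F1 induction and differed from one another after serum, Klf2 because it was lower after both, and Klf9 because it alone had no GC box.
Klf13: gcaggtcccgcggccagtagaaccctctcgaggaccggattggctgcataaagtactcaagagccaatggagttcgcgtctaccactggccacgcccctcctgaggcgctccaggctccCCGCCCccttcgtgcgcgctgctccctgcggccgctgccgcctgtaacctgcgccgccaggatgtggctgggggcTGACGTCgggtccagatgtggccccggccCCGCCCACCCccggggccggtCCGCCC
Klf4: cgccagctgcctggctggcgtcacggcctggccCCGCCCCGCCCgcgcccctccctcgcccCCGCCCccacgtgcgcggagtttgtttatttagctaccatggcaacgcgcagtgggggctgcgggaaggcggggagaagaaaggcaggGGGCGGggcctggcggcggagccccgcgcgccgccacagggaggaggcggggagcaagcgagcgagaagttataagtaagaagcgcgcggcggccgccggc
Klf9: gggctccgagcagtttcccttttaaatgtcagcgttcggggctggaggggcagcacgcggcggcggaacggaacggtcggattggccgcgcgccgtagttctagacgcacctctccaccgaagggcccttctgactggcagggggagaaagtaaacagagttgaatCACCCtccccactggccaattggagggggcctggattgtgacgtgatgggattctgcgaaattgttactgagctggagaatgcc
Klf11: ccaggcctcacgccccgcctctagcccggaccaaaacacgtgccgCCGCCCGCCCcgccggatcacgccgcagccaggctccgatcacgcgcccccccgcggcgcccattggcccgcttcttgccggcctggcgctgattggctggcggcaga
Klf2: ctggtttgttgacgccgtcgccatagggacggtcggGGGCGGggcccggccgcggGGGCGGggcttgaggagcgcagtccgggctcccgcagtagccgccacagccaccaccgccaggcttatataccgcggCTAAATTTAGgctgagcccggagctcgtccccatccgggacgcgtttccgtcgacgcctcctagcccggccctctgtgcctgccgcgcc

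The libraries were checked before the members were read. Totals of normalized counts ran from 34014608 to 46057140 per library. The mouse gene E2f1 stood at 1635 to 1703 at 0 h in the 4 libraries of both lines, at 1535 and 1755 in the E2F1 line at 2 h, at 3602 and 3806 at 6 h and at 2683 and 2845 at 12 h. EV cells given doxycycline stayed between 1307 and 1635, and serum-treated EV cells reached 4247 and 4615 at 12 h. So E2f1 was above its 0 h range in the E2F1 line at 6 and 12 h and across it at 2 h. All 12 fibroblast markers looked for were in the table, as were none of the epithelial, endothelial, blood, skeletal muscle and adipocyte markers and 1 of 4 neural ones, Tubb3 (11 to 790 per library). The lowest gene mean in the table was 99.6, so a marker absent from it may still be expressed at a lower level. The 2 h libraries stood apart in 1 respect. Of 12 genes that separated the lines at the other doxycycline times, chosen after their values were seen, the median level in the EV libraries at 2 h lay 14.3% to 21.8% of the way from EV to E2F1 cells at 0 h. In the 2 E2F1 libraries at 2 h it lay at 70.5% and 79.1%. The EV libraries at 6 and 12 h lay at -1.2% to 0.9%, of which those on doxycycline had also been used to choose the genes. At these genes the 2 h libraries of each line thus lay between the lines. Ddx3y stood at 71 to 170 in the 4 EV libraries at 2 h, 4 and 9 in EV cells at 0 h and 521 and 580 in E2F1 cells at 0 h. To a smaller extent Ddx3y was also above EV cells at 0 h at later times. It had 31 and 18 at 6 h of doxycycline in EV cells, and 48 and 35 at 6 h and 29 and 19 at 12 h of serum. Whether the 2 h libraries hold RNA of the other line was not tested, and every value at 2 h is read with this limit. Without the 6 libraries at 2 h, 1 of the members' calls between other times was lost, that of Klf10 between the lines at 0 h, and the difference of Klf11 between the lines at 6 h passed.

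All values are from bulk RNA, in which fewer expressing cells and less RNA per cell cannot be told apart. In starved cells the levels of the 10 genes differed widely. Per kilobase of exon, Klf6 had the highest level in both lines at 0 h, with a mean of 1173.7 normalized counts in EV and 1141.7 in E2F1 cells. Klf11 had the lowest, at 96.4 and 71.0. The other 8 lay between 152.9 for Klf10 and 487.2 for Klf3 in EV cells. Of the 10 members, 3 already differed between the lines before treatment, where 15.0% of all genes did. Klf2 was lower in E2F1 cells (428 and 390) than in EV cells (849 and 814), a log2 difference of -1.02 ± 0.23 (SE; limma, adjusted p = 0.00592). Klf4 was higher, at 2077 and 1931 against 1268 and 1053 (0.79 ± 0.15, limma, adjusted p = 0.00191). Klf10 was higher as well, at 940 and 980 against 504 and 774 (0.62 ± 0.19, limma, adjusted p = 0.0358). Klf2 lost the call without E2F1 replicate 2 at 0 h (-0.96, limma, adjusted p = 0.0511). Klf10 lost it without E2F1 replicate 1 (0.65), E2F1 replicate 2 (0.59) or EV replicate 1 (0.31), with limma adjusted p from 0.12 to 0.374, and without the 2 h libraries (limma, adjusted p = 0.0715). For these 3 genes the change of each line is read from its own 0 h level.

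**Figure D1:**
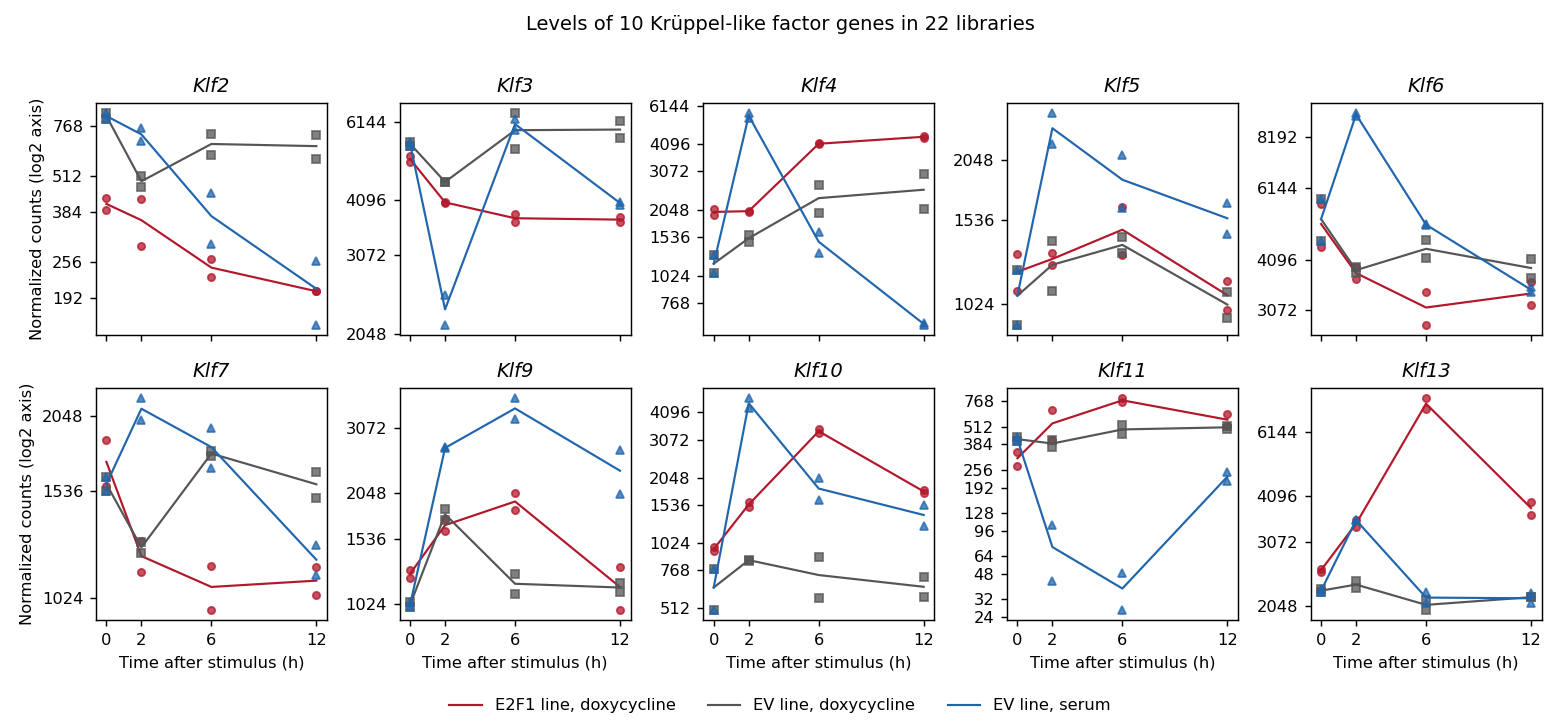
Normalized counts (vertical axis, log2 scale) of the 10 genes against hours after stimulus. Points are single libraries and lines join group means, in red for the E2F1 line on doxycycline, in grey for the EV line on doxycycline and in blue for the EV line on serum, which starts from the EV libraries at 0 h. Klf11 fell to 27 and 49 in serum at 6 h while it stood at 805 and 756 in the E2F1 line, and Klf13 reached 7600 and 7100 in the E2F1 line at 6 h.

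Against 0 h of the same line, at least 5 of the 10 members were called at each serum time and at 6 and 12 h in the E2F1 line, and at most 2 at any time with doxycycline alone. A member was called where the limma p adjusted over all 11208 genes was under 0.05. After E2F1 induction 2 of 10 members were called at 2 h, where 1.86% of all genes were, 9 of 10 at 6 h (51.7% of all genes) and 8 of 10 at 12 h (61.5%). At 2 h Klf13 rose and Klf7 fell, where 0.865% of all genes rose and 0.99% fell. Of the 9 at 6 h, 5 rose and 4 fell (28.8% and 22.9% of all genes), and of the 8 at 12 h, 4 rose and 4 fell (31.8% and 29.7%). The median log2 change of the 10 was 0.47 at 6 h and -0.15 at 12 h, with -0.03 and -0.02 over all genes. Serum called 9 of 10 at 2 h (70.9% of all genes), 5 of 10 at 6 h (67.5%) and 9 of 10 at 12 h (65.7%). At 2 h 7 rose and 2 fell (37.5% and 33.5% of all genes). At 6 h 3 rose and 2 fell (36.5% and 31.0%), and at 12 h 3 rose and 6 fell (36.0% and 29.7%). The median of the 10 moved from 0.75 at 2 h to 0.17 at 6 h and -0.43 at 12 h, with 0.03 to 0.05 over all genes. Doxycycline alone in EV cells called 2 members at 2 h (7.35% of all genes), 1 at 6 h (0.134%) and 1 at 12 h (4.17%). At 2 h Klf9 rose and Klf6 fell (4.93% and 2.43% of all genes), and the other 2 calls were rises of Klf4, at 6 h where 0.134% of all genes rose and at 12 h where 0.749% did. Most genes of the table were called after serum and at 6 and 12 h of E2F1 induction, and nothing particular to the family is read from the counts there. Most of the small counts changed with single libraries. The E2F1 count at 2 h was 0 without E2F1 replicate 2 at 0 h or replicate 1 at 2 h, 1 without replicate 2 at 2 h, and 6 when only the 2 groups compared were fitted. The EV count was 1 at 2 h without either 2 h library, 0 at 6 h without EV replicate 2 at 0 h or replicate 1 at 6 h, and 2 at 12 h without EV replicate 1 at 0 h.

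**Figure D2:**
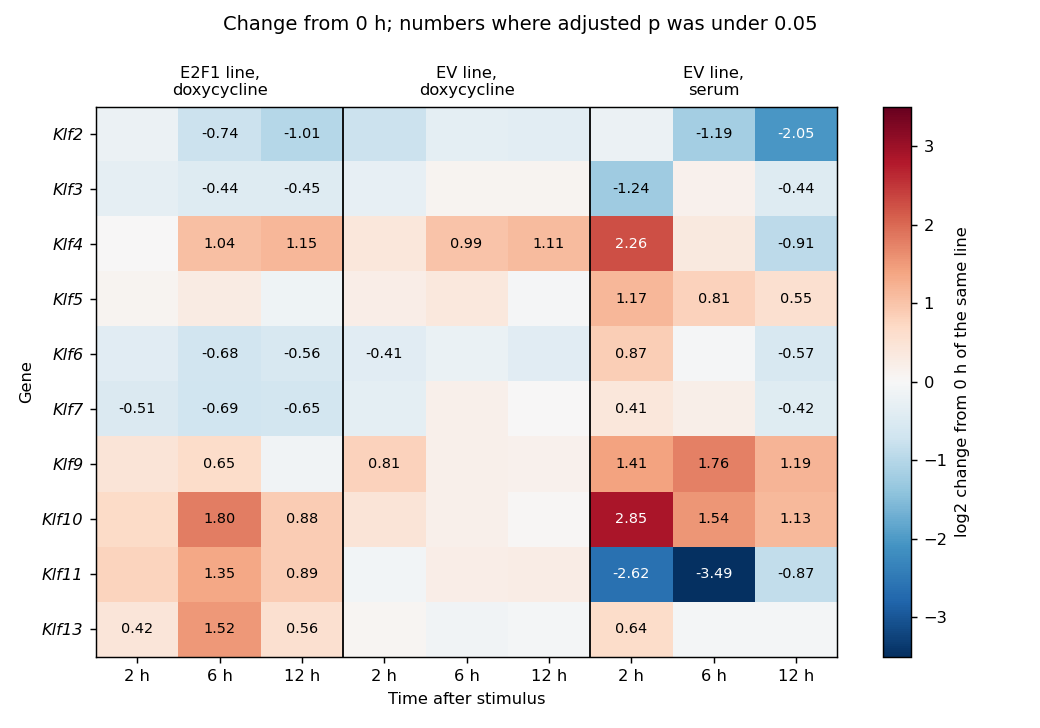
Colour gives the log2 change from 0 h of the same line for the 10 genes (rows) at 2, 6 and 12 h after E2F1 induction, doxycycline alone and serum (columns), with the number printed where the adjusted p was under 0.05. Klf4, Klf10, Klf11 and Klf13 rose in both the 6 and 12 h columns of the E2F1 line, and Klf11 fell in the 3 serum columns.

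Klf2 and Klf4, the pair best known for restraining proliferation, moved in opposite directions in the E2F1 line on doxycycline. Neither change was told apart from that of EV cells on the drug. For Klf2 the E2F1 minus EV difference was -0.41 ± 0.32 at 6 h and -0.66 ± 0.32 at 12 h (limma, adjusted p = 0.34 and 0.0995). Klf2 (chr8:72319033-72321656 on GRCm38) in the E2F1 line stood at 428 and 390 normalized counts at 0 h, 291 and 426 at 2 h, 227 and 262 at 6 h and 202 and 202 at 12 h. EV cells on doxycycline had 849 and 814, 470 and 512, 718 and 609, and 588 and 716 at the same times. After serum it stood at 752 and 682 at 2 h, 446 and 295 at 6 h and 154 and 258 at 12 h. All 6 and 12 h libraries of the E2F1 and serum courses were below the 0 h libraries of their line. Klf2 fell by 0.74 ± 0.23 (SE) on the log2 scale at 6 h and by 1.01 ± 0.23 at 12 h of E2F1 induction (limma, adjusted p = 0.0114 and 0.000872). The call at 6 h was lost without E2F1 replicate 1 at 0 h (-0.68, limma, adjusted p = 0.0677) or replicate 1 at 6 h (-0.64, limma, adjusted p = 0.0842). In serum it fell by 1.19 ± 0.23 at 6 h and by 2.05 ± 0.23 at 12 h (limma, adjusted p = 0.000156 and 3.81e-07). Against EV cells on doxycycline of the same hour, the serum libraries were lower by a log2 difference of -1.70 ± 0.23 at 12 h (limma, adjusted p = 2.83e-06).

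Klf4 (chr4:55527143-55532466), also known as a reprogramming factor, rose late with doxycycline in both lines and early and briefly with serum. In E2F1 cells it stood at 2077 and 1931 at 0 h, 2033 and 2008 at 2 h, 4147 and 4086 at 6 h and 4388 and 4475 at 12 h. EV cells on doxycycline went from 1268 and 1053 at 0 h to 1463 and 1573, 2662 and 1974, and 2996 and 2071. Serum took it to 5401 and 5670 at 2 h, 1623 and 1302 at 6 h and 620 and 608 at 12 h. The 12 h serum libraries were the lowest of all 22, below every 0 h library. Klf4 rose by a log2 change of 1.04 ± 0.15 at 6 h and 1.15 ± 0.15 at 12 h in E2F1 cells (limma, adjusted p = 1.58e-05 and 3.4e-06). With doxycycline alone it rose by 0.99 ± 0.15 and 1.11 ± 0.15 (limma, adjusted p = 0.00454 and 0.000633), and it was the 1 member called at 6 and at 12 h. That call at 6 h was lost without EV replicate 2 at 0 h (0.85, limma, adjusted p = 0.163), without EV replicate 1 at 6 h (0.77, limma, adjusted p = 0.15) and when only the 2 groups were fitted (limma, adjusted p = 0.388). The test of the difference between lines left 0.05 at 6 h (95% interval -0.40 to 0.50) and 0.04 at 12 h (-0.41 to 0.49). No difference between the lines in the Klf4 rise was thus detected, with these intervals bounding its size. In serum Klf4 rose by 2.26 ± 0.15 at 2 h and fell below its start by 0.91 ± 0.15 at 12 h (limma, adjusted p = 2.35e-10 and 3.86e-05).

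Klf5, Klf6 and Klf7, activators linked to proliferation, injury and neuronal growth in other tissues, peaked at 2 h of serum. Klf5 (chr14:99298691-99315036) went from 1204 and 924 in EV cells at 0 h to 2211 and 2565 at 2 h of serum, 1622 and 2103 at 6 h and 1661 and 1431 at 12 h. With doxycycline, EV cells had 1087 and 1383, 1310 and 1409, and 1084 and 954, and E2F1 cells had 1298 and 1090, 1232 and 1309, 1631 and 1295, and 1141 and 992 from 0 to 12 h. All 6 serum libraries were above both 0 h libraries, and the doxycycline groups at 12 h overlapped those at 0 h. Klf5 rose by 1.17 ± 0.16, 0.81 ± 0.16 and 0.55 ± 0.16 at 2, 6 and 12 h of serum (limma, adjusted p = 3.43e-06, 0.000256 and 0.00658). The last call was lost without EV replicate 2 at 0 h (0.36, limma, adjusted p = 0.107) or serum replicate 1 at 12 h (0.44, limma, adjusted p = 0.0702). Klf5 was the 1 member with no call at any time of E2F1 induction against 0 h.

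Klf6 (chr13:5861482-5870394), an early growth factor response gene in other cells, had 4543 and 5764 in EV cells at 0 h. Serum raised it to 9383 and 9272 at 2 h, followed by 4975 and 5011 at 6 h and 3399 and 3506 at 12 h. E2F1 cells had 4412 and 5614 at 0 h, 3666 and 3923 at 2 h, 3414 and 2829 at 6 h and 3601 and 3158 at 12 h. EV cells on doxycycline had 3925 and 3791, 4586 and 4124, and 4117 and 3693. The 2 h serum libraries were the highest of the 22, and the 6 and 12 h libraries of the E2F1 line were below both of its 0 h libraries, which themselves were spread. Klf6 rose by 0.87 ± 0.12 at 2 h of serum and fell by 0.57 ± 0.12 at 12 h (limma, adjusted p = 3.89e-06 and 0.000477). At 12 h Klf6 in serum was not told apart from Klf6 in EV cells on doxycycline (-0.18 ± 0.12, limma, adjusted p = 0.202). In E2F1 cells it fell by 0.68 ± 0.12 at 6 h and by 0.56 ± 0.12 at 12 h (limma, adjusted p = 0.000142 and 0.000588). It also fell by 0.41 ± 0.12 with doxycycline alone at 2 h (limma, adjusted p = 0.047), a call lost without EV replicate 2 at 0 h (-0.24), EV replicate 1 at 2 h (-0.43) or EV replicate 2 at 2 h (-0.38), with limma adjusted p from 0.127 to 0.354, and when only the groups compared were fitted (limma, adjusted p = 0.0951).

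Klf7 (chr1:64029447-64122282) had the narrowest range of the family, with a log2 difference of 0.98 between its highest and lowest group mean. Of its exonic bases, 39.3% overlap the noncoding gene Gm26649 on the opposite strand, and whether the counting used strand is not given in the sources used here, so its values are uncertain. E2F1 cells had 1566 and 1870 at 0 h, 1269 and 1131 at 2 h, 978 and 1156 at 6 h and 1153 and 1033 at 12 h. EV cells on doxycycline had 1624 and 1535, 1268 and 1213, 1755 and 1792, and 1656 and 1499, and on serum 2188 and 2019, 1677 and 1958, and 1116 and 1251. All libraries of the E2F1 line after 0 h were below its 0 h libraries, while those of EV cells on doxycycline were below at 2 h, above at 6 h and across at 12 h. Klf7 fell by 0.51 ± 0.11, 0.69 ± 0.11 and 0.65 ± 0.11 at 2, 6 and 12 h of E2F1 induction (limma, adjusted p = 0.0271, 7.61e-05 and 8.9e-05). The 2 h call was lost without E2F1 replicate 2 at 0 h (-0.39), E2F1 replicate 1 at 2 h (-0.60) or E2F1 replicate 2 at 2 h (-0.43), with limma adjusted p from 0.0892 to 0.362. In serum it rose by 0.41 ± 0.11 at 2 h and fell by 0.42 ± 0.11 at 12 h (limma, adjusted p = 0.00364 and 0.00388). The rise was lost with equal library totals (0.04, limma, adjusted p = 0.78) and with quantile normalization (0.22, limma, adjusted p = 0.111). The fall was lost without serum replicate 1 at 12 h (-0.34, limma, adjusted p = 0.051).

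Klf3 (chr5:64803388-64832901), the CtBP-recruiting repressor, of whose exonic bases 3.6% lie opposite the noncoding Gm20033, dipped sharply in serum and stayed slightly low after E2F1 induction. In EV cells it stood at 5538 and 5417 at 0 h, then at 2143 and 2502 at 2 h of serum, 5895 and 6234 at 6 h and 4061 and 3997 at 12 h. E2F1 cells went from 4985 and 5141 to 4057 and 4028, 3799 and 3648, and 3656 and 3738. EV cells on doxycycline had 4498 and 4492, 6409 and 5343, and 6161 and 5630. The serum libraries at 2 h were the lowest of the 22 and those at 6 h were above both 0 h libraries. Klf3 fell by 1.24 ± 0.09 at 2 h of serum (limma, adjusted p = 3.8e-10), rose by 1.39 ± 0.09 from 2 to 6 h (limma, adjusted p = 9.19e-10) and was again lower than at 0 h at 12 h, with a log2 change of -0.44 ± 0.09 (limma, adjusted p = 0.000198). In E2F1 cells it fell by 0.44 ± 0.09 at 6 h and by 0.45 ± 0.09 at 12 h (limma, adjusted p = 0.000329 and 0.000174).

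Of the 4 Sin3-recruiting members, Klf13 (chr7:63886351-63938915) showed the clearest rise with E2F1. E2F1 cells had 2545 and 2593 at 0 h, 3524 and 3363 at 2 h, 7600 and 7100 at 6 h and 3961 and 3642 at 12 h. EV cells had 2281 and 2231 at 0 h and then 2400 and 2289, 1999 and 2126, and 2163 and 2167 on doxycycline. Serum gave 3530 and 3515 at 2 h, 2081 and 2238 at 6 h and 2083 and 2217 at 12 h. The E2F1 libraries after 0 h were all above their start, and the serum libraries were above it at 2 h only. Klf13 rose by 1.52 ± 0.07 at 6 h and 0.56 ± 0.07 at 12 h of E2F1 induction (limma, adjusted p = 2.06e-11 and 2.84e-06), and its level fell by 0.95 ± 0.07 between those times (limma, adjusted p = 3.22e-07). At 2 h it rose by 0.42 ± 0.07 (limma, adjusted p = 0.0052), a call lost without E2F1 replicate 2 at 0 h (0.44, limma, adjusted p = 0.0702) or replicate 1 at 2 h (0.39, limma, adjusted p = 0.0892). The serum rise at 2 h was 0.64 ± 0.07 (limma, adjusted p = 2.92e-07).

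Klf9 (chr19:23141226-23168134), known as a glucocorticoid-induced and clock-linked gene, rose at all 3 serum times, as did Klf5 and Klf10. From 1037 and 1005 in EV cells at 0 h it reached 2708 and 2723 at 2 h, 3250 and 3697 at 6 h and 2033 and 2678 at 12 h of serum. EV cells on doxycycline had 1730 and 1861 at 2 h, 1239 and 1090 at 6 h and 1105 and 1170 at 12 h. E2F1 cells had 1271 and 1207, 1617 and 1739, 2045 and 1844, and 1292 and 990. Every serum library was above every 0 h library of both lines, and the E2F1 libraries were above their start at 2 and 6 h and across it at 12 h. Klf9 rose by 1.41 ± 0.13, 1.76 ± 0.13 and 1.19 ± 0.13 in serum (limma, adjusted p = 1.58e-08, 1.36e-09 and 2.73e-07). With doxycycline alone it rose by 0.81 ± 0.13 at 2 h (limma, adjusted p = 0.00118). In E2F1 cells it rose by 0.65 ± 0.13 at 6 h (limma, adjusted p = 0.000412) and then fell by 0.78 ± 0.13 from 6 to 12 h (limma, adjusted p = 0.000204). At 2 h serum exceeded doxycycline alone by 0.60 ± 0.13 (limma, adjusted p = 0.000479), which was lost with equal library totals (0.20, limma, adjusted p = 0.147).

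Klf10 and Klf11 are close relatives that were first described as TGF-beta-inducible early genes, and both rose after E2F1 induction but moved in opposite directions in serum. Klf10 (chr15:38291463-38300706) in E2F1 cells stood at 940 and 980 at 0 h, 1498 and 1583 at 2 h, 3427 and 3280 at 6 h and 1802 and 1739 at 12 h. EV cells had 504 and 774 at 0 h and 859 and 849, 572 and 886, and 575 and 712 on doxycycline. Serum gave 4753 and 4277 at 2 h, 1618 and 2033 at 6 h and 1231 and 1527 at 12 h. All E2F1 and serum libraries after 0 h were above the 0 h libraries of their line, and EV libraries on doxycycline overlapped theirs at 6 and 12 h. Klf10 rose by 1.80 ± 0.19 at 6 h and 0.88 ± 0.19 at 12 h of E2F1 induction (limma, adjusted p = 3.42e-07 and 0.000594). In serum it rose by 2.85 ± 0.19, 1.54 ± 0.19 and 1.13 ± 0.19 at 2, 6 and 12 h (limma, adjusted p = 2.38e-10, 1.16e-06 and 4.53e-05).

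Klf11 (chr12:24651274-24662789) had the widest range of the family, 20.9-fold between the highest and the lowest group mean. E2F1 cells had 274 and 342 at 0 h, 665 and 413 at 2 h, 805 and 756 at 6 h and 520 and 624 at 12 h. EV cells had 430 and 407 at 0 h and 369 and 411, 452 and 526, and 516 and 496 on doxycycline. Serum gave 105 and 43 at 2 h, 49 and 27 at 6 h and 213 and 245 at 12 h. The serum libraries were below all other libraries, and the 2 at 2 h differed from each other by more than those of the other groups did in proportion. Klf11 fell by 2.62 ± 0.32 at 2 h, by 3.49 ± 0.32 at 6 h and by 0.87 ± 0.32 at 12 h of serum (limma, adjusted p = 7.15e-07, 2.5e-08 and 0.0229). Without serum replicate 2 or replicate 1 at 2 h, the first of these was -1.98 and -3.25. The call at 12 h was lost without EV replicate 1 at 0 h (-0.83), EV replicate 2 at 0 h (-0.91) or serum replicate 1 at 12 h (-0.77), with limma adjusted p from 0.0575 to 0.11. Its level rose by 2.62 ± 0.32 between 6 and 12 h of serum (limma, adjusted p = 3.99e-06). In E2F1 cells Klf11 rose by 1.35 ± 0.32 at 6 h and 0.89 ± 0.32 at 12 h (limma, adjusted p = 0.00187 and 0.0213). The latter call was lost without E2F1 replicate 1 at 0 h (0.73, limma, adjusted p = 0.128) or replicate 2 at 12 h (0.76, limma, adjusted p = 0.116).

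The change in E2F1 cells was next set against that in EV cells under the same drug, as the first minus the second. Such a difference holds the construct's contribution together with any other difference between the lines, and the design cannot tell these apart. Klf10 and Klf13 gained and Klf3 and Klf7 lost at both 6 and 12 h. These were 4 of 10 members at 6 h, where 34.5% of all genes were called, and 4 of 10 at 12 h (50.5%). The 2 gains at 6 h compare with 22.2% of all genes gaining and the 2 losses with 12.3% losing. For 12 h these shares were 27.3% and 23.3%. Klf13 differed by 1.65 ± 0.10 at 6 h and 0.62 ± 0.10 at 12 h (limma, adjusted p = 3.95e-09 and 7.09e-05). Klf10 differed by 1.61 ± 0.27 and 0.85 ± 0.27 (limma, adjusted p = 0.000137 and 0.0137), and its 12 h call was lost without EV replicate 2 at 0 h (0.54, limma, adjusted p = 0.0997) or EV replicate 1 at 12 h (0.69, limma, adjusted p = 0.0671). Klf7 differed by -0.85 ± 0.16 and -0.65 ± 0.16 (limma, adjusted p = 0.000494 and 0.00286); its reads may include those of the overlapping Gm26649. Klf3 differed by -0.54 ± 0.12 and -0.56 ± 0.12 (limma, adjusted p = 0.00207 and 0.000904). Klf11, which rose in E2F1 cells, differed from EV cells by 1.13 at 6 h with a 95% interval of 0.18 to 2.07 and did not pass (limma, adjusted p = 0.0614). At 2 h limma called 0 of 10 members (0.143% of all genes), with 1 member, Klf13, at an unadjusted p under 0.05. Klf2, Klf4, Klf5, Klf6 and Klf9 did not pass at any time, so their changes in the E2F1 line are not shown to differ from those with the drug alone. For some of them this depended on the scaling or fit. Over such alternatives the lowest limma adjusted p was 0.00431 for Klf6 and 0.037 for Klf9 at 6 h. For Klf2 it was 0.0266 at 12 h. For Klf11, which did not pass at 12 h either (limma, adjusted p = 0.266), it was 0.00368 at 6 h and 0.0477 at 12 h.

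**Figure D3:**
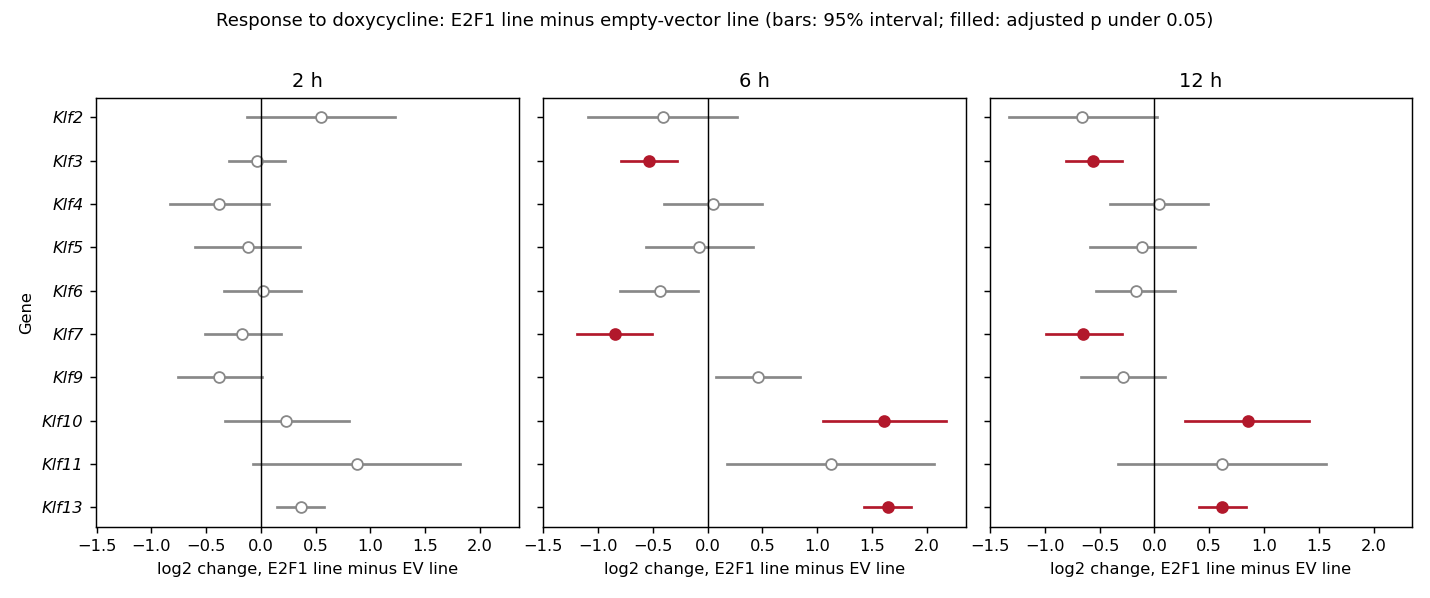
Difference in log2 change between the E2F1 and EV lines on doxycycline (horizontal axis) for the 10 genes at 2, 6 and 12 h, with bars for the 95% interval and filled red points where the adjusted p was under 0.05. At 6 h Klf10 and Klf13 lay near 1.61 and 1.65, Klf3 and Klf7 lay below 0, and Klf4 lay at 0.05 with an interval across 0.

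E2F1 induction and serum, both of which take starved 3T3 cells back towards the cell cycle, were compared as changes from each line's own 0 h. The 2 changes differed for 8 of 10 members at 2 h (56.7% of all genes), 7 of 10 at 6 h (57.9%) and 6 of 10 at 12 h (48.8%). Among the members the largest difference was that of Klf11, which was 1.35 up with E2F1 and 3.49 down with serum at 6 h, a log2 difference of 4.83 ± 0.45 (limma, adjusted p = 6.56e-08), and still differed by 1.76 ± 0.45 at 12 h (limma, adjusted p = 0.0035). Klf4 crossed over. Its change with E2F1 was different from that with serum by -2.25 ± 0.21 at 2 h and by 2.06 ± 0.21 at 12 h (limma, adjusted p = 7.84e-08 and 5.03e-07). The Klf4 rise in this line was 1.15 at 12 h beside 1.11 with the drug alone, and serum against the drug alone at 12 h gave -2.02, so this difference is also found without E2F1 induction. Klf13 was higher with E2F1 by 1.58 ± 0.10 at 6 h and 0.63 ± 0.10 at 12 h (limma, adjusted p = 1.01e-09 and 6.76e-05). Klf9 was lower with E2F1, by -1.11 ± 0.18 and -1.32 ± 0.18 (limma, adjusted p = 4.47e-05 and 1.14e-05). At 6 h Klf3, Klf6 and Klf7 were also lower with E2F1, by -0.59 ± 0.12, -0.64 ± 0.17 and -0.88 ± 0.16 (limma, adjusted p = 0.00044, 0.00356 and 0.000146). From the 0 h level of each line, Klf2 fell less with E2F1 than with serum at 12 h (1.04 ± 0.32, limma, adjusted p = 0.0124). That call was lost without serum replicate 1 at 12 h (0.67). The 12 h levels of Klf2 were alike, at 202 and 202 in E2F1 cells and 154 and 258 in serum. Before treatment Klf2 was already lower in E2F1 than in EV cells (-1.02 ± 0.23). For Klf10 the 6 and 12 h changes with E2F1 (1.80 and 0.88) and serum (1.54 and 1.13) were not told apart.

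**Figure D4:**
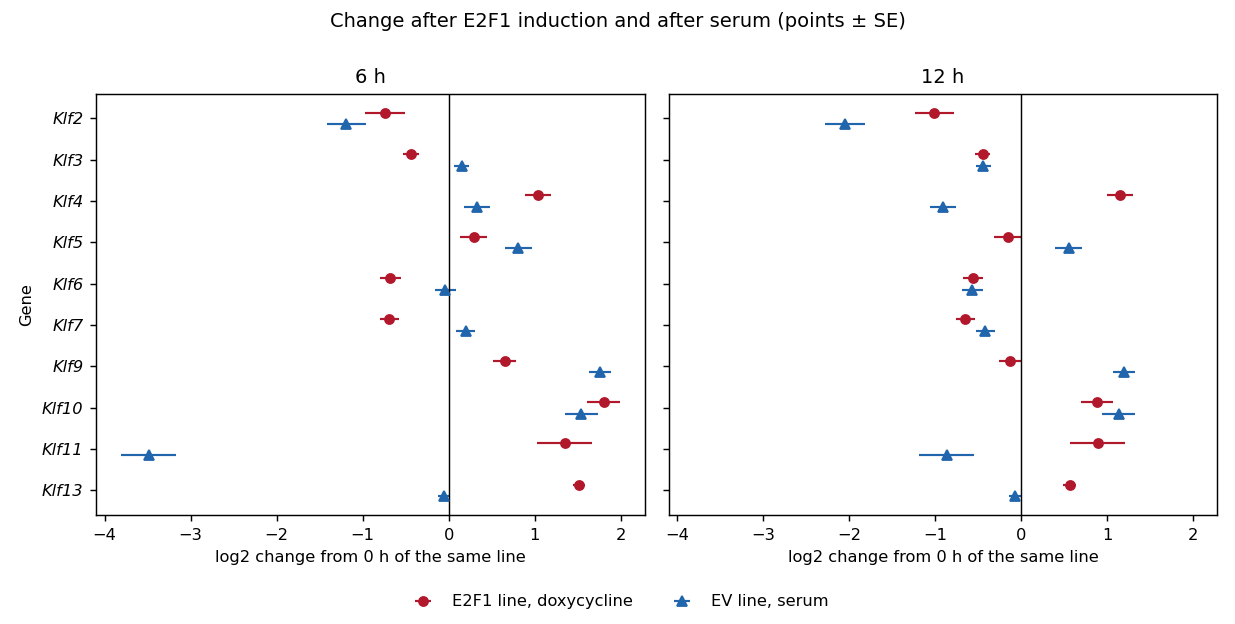
Log2 change from 0 h of the same line (horizontal axis, points ± SE) for the 10 genes after E2F1 induction (red circles) and after serum (blue triangles) at 6 and 12 h. Klf11 lay at 1.35 and -3.49 at 6 h, and Klf4 at 1.15 and -0.91 at 12 h.

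Serum against EV cells on doxycycline for the same time, a comparison that uses no 0 h library, gave calls for 10 of 10 members at 2 h (67.1% of all genes), 6 of 10 at 6 h (65.8%) and 8 of 10 at 12 h (70.4%). Of the 10 at 2 h, 8 were higher in serum (35.0% of all genes), and Klf3 and Klf11 were lower (32.1%). Klf11 was lower at all 3 times, by -2.52 ± 0.32, -3.71 ± 0.32 and -1.14 ± 0.32 (limma, adjusted p = 1.47e-06, 1.16e-08 and 0.00384). Klf4 turned from 1.87 ± 0.15 higher at 2 h to -0.66 ± 0.15 at 6 h and -2.02 ± 0.15 at 12 h (limma, adjusted p = 4.04e-09, 0.00088 and 1.61e-09). Klf10 was higher throughout, by 2.40 ± 0.19, 1.35 ± 0.19 and 1.10 ± 0.19 (limma, adjusted p = 3.22e-09, 5.74e-06 and 5.15e-05). Klf2, at 752 and 682 in serum and 470 and 512 on doxycycline at 2 h, was called there at 0.54 ± 0.23 (limma, adjusted p = 0.0425). Leaving out any of the 4 libraries gave 0.47 to 0.62 and ended that call (limma, adjusted p from 0.0736 to 0.164), as did equal library totals (0.15, limma, adjusted p = 0.56). The 4 libraries of Klf2 lay between the 0 h libraries of the EV and E2F1 lines.

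The turn of each course was read between neighbouring times. In serum, from 2 to 6 h 8 of 10 were called (48.5% of all genes), with 2 higher and 6 lower (24.3% of all genes each way), and from 6 to 12 h 7 of 10 (39.9%), with 1 higher and 6 lower (19.3% and 20.6%). The 6 that were lower at 6 h than at 2 h were Klf2, Klf4, Klf6, Klf10, Klf11 and Klf13, of which Klf2 and Klf11 had not risen at 2 h. The call of Klf11 (-0.87 ± 0.32, limma, adjusted p = 0.0313) was weak. Its libraries overlapped, at 105 and 43 and at 49 and 27. With 1 library left out the change ran from -1.50 to -0.23, and under another scaling or fit the limma adjusted p reached 0.242. Klf4 fell by 1.93 ± 0.15 and then by 1.24 ± 0.15 (limma, adjusted p = 1.32e-08 and 3.75e-06), and Klf10 fell by 1.31 ± 0.19 in the first step (limma, adjusted p = 1.85e-05). The member that came back up in the second step was Klf11. In E2F1 cells 3 members were called between 2 and 6 h (47.6% of all genes), all of them higher (27.4%, against 20.2% lower). They were Klf4 (1.03 ± 0.15), Klf10 (1.12 ± 0.19) and Klf13 (1.09 ± 0.07), with limma adjusted p of 2.05e-05, 9.56e-05 and 1.7e-09. Between 6 and 12 h 4 were called (35.3%), all of them lower (20.2%, against 15.1% higher). These were Klf5, Klf9, Klf10 and Klf13, of which Klf10 fell by 0.92 ± 0.19 (limma, adjusted p = 0.00125). The call of Klf5 (-0.45 ± 0.16, limma, adjusted p = 0.0389) was lost without E2F1 replicate 1 at 6 h (-0.28) or replicate 1 (-0.55) or 2 (-0.35) at 12 h, with limma adjusted p from 0.0537 to 0.303, and with equal totals (-0.39). Klf4 was not called in this step, with 4388 and 4475 at 12 h after 4147 and 4086 at 6 h.

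The authors' deposited tables of differential expression, which list genes with at least a 4-fold change, named 4 members. They gave Klf10, Klf4 and Klf11 at 2 h of serum (log2 2.86, 2.27 and -2.61), Klf11 at 6 h (-3.48) and Klf2 at 12 h (-2.03). No member was listed in their tables for doxycycline in either line.

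Of 7 other Krüppel-like factors looked for, the table used held Klf12 and Klf16, both repressors. Absence of a gene from this table, whose lowest gene mean was 99.6, is not absence of expression. Klf16 rose after both stimuli. It went from 1358 and 1440 in E2F1 cells at 0 h to 6120 and 5241 at 6 h and 2605 and 2269 at 12 h, rises of 2.02 ± 0.11 and 0.80 ± 0.11 (limma, adjusted p = 8.57e-11 and 5.96e-06). In serum it rose by 1.29 ± 0.11, 1.31 ± 0.11 and 0.90 ± 0.11 (limma, adjusted p = 6.55e-09, 8.17e-09 and 1.19e-06). Klf12 went from 597 and 559 in EV cells to 254 and 257, 161 and 155, and 182 and 211 in serum, falls whose log2 changes were -1.17 ± 0.17, -1.86 ± 0.17 and -1.55 ± 0.17 (limma, adjusted p = 5.81e-06, 2.31e-08 and 3.03e-07). With doxycycline alone Klf12 also fell at 2 h (338 and 319, -0.81 ± 0.17, limma, adjusted p = 0.00784). Serum against doxycycline alone was not called at 2 h (-0.36 ± 0.17, limma, adjusted p = 0.0681). It was called at 6 and 12 h, at -1.71 ± 0.17 and -1.86 ± 0.17 (limma, adjusted p = 6.87e-08 and 2.04e-08). Of 9 SP factors, the sister family that binds the same boxes, Sp1, Sp2, Sp3 and Sp4 were in the table. All 4 rose at 12 h of E2F1 induction, where 31.8% of all genes did, led by Sp3 (4185 and 4426 at 0 h, 8889 and 8980 at 12 h) at 1.05 ± 0.08 (limma, adjusted p = 3.35e-09). In serum 1 rose and 2 fell at 2 h (1 called in all under quantile normalization), 2 fell at 6 h and 1 fell at 12 h (2 called with quantile normalization or equal totals), where 36.0% to 37.5% of all genes rose and 29.7% to 33.5% fell, with Sp4 the largest fall at 6 h, -1.09 ± 0.20 (limma, adjusted p = 0.000121).

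All 14 cofactor genes looked for, the corepressors and acetyltransferases that these proteins recruit, were in the table. At 6 h of E2F1 induction 8 rose, and at 12 h 9 rose and 3 fell, with list medians of 0.27 and 0.46. Of all genes, 28.8% rose and 22.9% fell at 6 h, and 31.8% rose and 29.7% fell at 12 h. Sap30, a subunit of the Sin3 complex, rose by 1.52 ± 0.18 at 6 h (limma, adjusted p = 1.22e-06), and Ctbp2, the partner of Klf3, rose by 1.26 ± 0.10 at 12 h (limma, adjusted p = 1.03e-08). In serum 4 to 6 of the 14 rose and 4 to 5 fell at each time, where 36.0% to 37.5% of all genes rose and 29.7% to 33.5% fell. The largest fall was that of the acetyltransferase gene Kat2b, from 2338 and 2145 at 0 h to 420 and 337 at 6 h (log2 -2.57 ± 0.11, limma, adjusted p = 2.7e-12). Sap30, which rose with E2F1, fell by 1.5 ± 0.18 at 2 h of serum (limma, adjusted p = 5.44e-07). The lines started apart, at 412 and 367 in E2F1 cells and 828 and 783 in EV cells. E2F1 cells had 1137 and 1104 at 6 h and 846 and 848 at 12 h. EV cells on doxycycline had 776 and 716, and 943 and 920, so at 12 h Sap30 was not higher in E2F1 cells. Among 7 ubiquitin ligases known to act on family members, 2 rose and 1 fell at 6 h of E2F1 induction and 2 rose and 4 fell at 12 h, and the 2 rises at 6 h are a share like that of all genes (28.8%). Fbxo32 was the largest fall with both stimuli, with a log2 change of -1.66 ± 0.15 at 12 h of E2F1 induction and -2.97 ± 0.15 at 12 h of serum (limma, adjusted p = 4.98e-08 and 6.7e-11). Fbxw7, which targets several growth-promoting proteins, rose by 1.53 ± 0.12 at 2 h of serum (limma, adjusted p = 2.73e-09).

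Of 19 genes that act on Klf genes upstream, all in the table, 10 rose and 2 fell at 6 h of E2F1 induction and 9 rose and 8 fell at 12 h (of all genes, 28.8% and 22.9%, and 31.8% and 29.7%). Mef2c, a factor of the ERK5 arm that acts on Klf2 and Klf4, was the largest rise, from 269 and 228 at 0 h to 1447 and 1440 at 6 h and 1456 and 1175 at 12 h (2.54 ± 0.20 and 2.40 ± 0.20, limma, adjusted p = 8.12e-09 and 1.38e-08). Serum raised 11 and lowered 4 at 2 h, 9 and 5 at 6 h, and 5 and 6 at 12 h (of all genes, 37.5% and 33.5%, 36.5% and 31.0%, and 36.0% and 29.7%). The SRF cofactor Mrtfa led the rises at 2 h (1.95 ± 0.09, limma, adjusted p = 3.14e-12), and Foxo3, a FOXO factor that acts on Klf2, was the largest fall (-2.03 ± 0.12, limma, adjusted p = 3.64e-11). Tgfbr2, the TGF-beta receptor gene upstream of Klf10 and Klf11, was the largest fall at 6 and 12 h, from 18165 and 17940 at 0 h to 5772 and 4371 and to 5240 and 5416 (-1.85 ± 0.14 and -1.76 ± 0.14, limma, adjusted p = 2.33e-09 and 6.51e-09).

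Of 27 genes described as targets of family members, 20 were in the table. With E2F1, 6 rose and 3 fell at 6 h (8 fell under quantile normalization), and 8 rose and 10 fell at 12 h. The share of rises at 6 h was near the 28.8% of all genes, of which 22.9% fell, and at 12 h 31.8% of all genes rose and 29.7% fell. Cdkn1a, the p21 cell cycle inhibitor that Klf4 and Klf6 are known to activate, was the largest rise at both times, from 3066 and 2954 to 13789 and 12293 and to 15754 and 14293 (2.11 ± 0.10 and 2.32 ± 0.10, limma, adjusted p = 2.47e-11 and 1.2e-11). In serum 12 rose and 5 fell at 2 h, 13 rose and 4 fell at 6 h, and 11 rose and 6 fell at 12 h, with list medians of 0.67, 0.58 and 0.39 (0.03 to 0.05 over all genes, of which 36.0% to 37.5% rose and 29.7% to 33.5% fell). The clock output gene Dbp was the largest fall, with -4.34 ± 0.39 at 2 h and -4.97 ± 0.39 at 6 h (limma, adjusted p = 1.29e-08 and 3.44e-09). These lists were drawn up with earlier results of the same libraries known, and the link between a family member and any of these genes was not tested.

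Likeness between members was described by Pearson's r over the 11 group means of log2(value + 1), which share libraries and treatments, so no test is given. Klf6 and Klf7 had the most similar pattern (r = 0.86), as did Klf5 and Klf9 (0.86), the 2 genes raised at every serum time beside Klf10. Klf3 and Klf10 were the least alike (-0.80), followed by Klf5 and Klf11 (-0.78). Klf13 was closest to Klf10 (0.72), and Klf4 to Klf13 (0.66). Klf10 and Klf11, the TGF-beta-inducible pair, had an r of -0.38. Among genes with a mean of at least 100, those most like Klf11 were Jak3 (0.97), Abca3 (0.963) and Serhl (0.962), those most like Klf4 were Arhgef2 (0.955), Zfp592 (0.938) and Cyp46a1 (0.932), and those most like Klf10 were Ippk (0.984), Tent4b (0.982) and Scaf4 (0.971). Their group means spanned smaller or similar ranges, such as 356.0 to 1443.0 for Ippk against 639.0 to 4515.0 for Klf10.

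**Figure D5:**
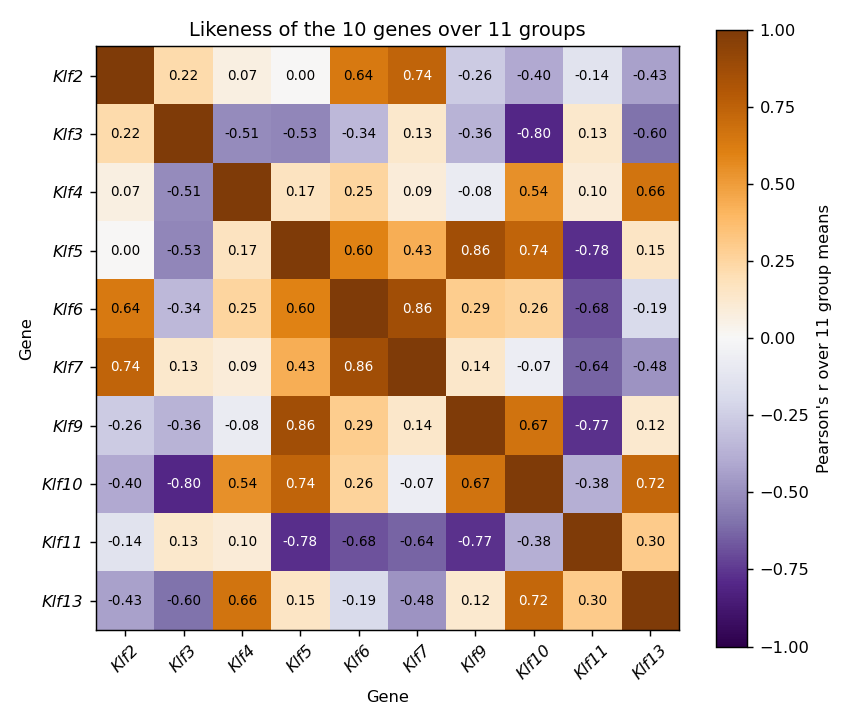
Pearson's r between each pair of the 10 genes over 11 group means, with colour from -1 to 1 and the value printed in each cell. Klf6 with Klf7 and Klf5 with Klf9 reached 0.86, and Klf11 was below 0 with 6 of the other 9.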

How the data were processed

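Libraries were polyA RNA-seq of 150 bp paired-end reads. The submitters' processing notes name FastQC, Trimmomatic, HISAT2, featureCounts, DESeq2 and mm10, without roles or versions, and strand use in counting is not given in the sources used here. The deposited values are a score, normalized counts that the authors rounded to whole numbers, so no count model was applied and raw depth is unknown. The lowest gene mean over the libraries was 99.6. The authors' deposited log2 fold changes and adjusted p-values were copied for members only.

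After addition of 1, log2 values were fitted in limma 3.58.1 (R 4.3.3) as 11 group means over 22 libraries with 11 residual degrees of freedom, a trended variance and Benjamini-Hochberg adjustment over 11208 genes in each of 23 comparisons, with a threshold of 0.05. Pseudocounts, filtering, scaling, replicate blocks, fitted groups, a 2-fold minimum and left-out libraries were varied. A filter of at least 10 in 2 libraries removed 0 genes. On simulated data for the 6 h E2F1 comparison, 178 of 200 genes changed by 1 log2 unit were recovered among 11208, with 7 false calls. The simulation drew independent normal noise around a single mean per gene and changed no other gene or group. In the real comparison 51.7% of all genes were called, so these figures are not its error rates.

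The members and lists were chosen with earlier results of these data known. All 10 members are named, and a listed gene is named where it had the largest called rise or fall of its list, except for 1 gene that is not reported here. For the 3 members of widest range, the 3 genes of most similar pattern are named. Gene positions are those of GENCODE M21 on GRCm38, in which 10977 of the 11208 gene identifiers matched with their version.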

Additional observations from a re-analysis of the deposited data

Results flagged for a closer look

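The change of 4 of 10 members differed between the E2F1 and EV lines under the same dose of doxycycline, by the limma test of the difference itself. Of all genes, 34.5% were called in that test at 6 h and 50.5% at 12 h, so nothing particular to the family is read from the count. At 6 h the difference in log2 change was 1.65 for Klf13, 1.61 for Klf10, -0.85 for Klf7 and -0.54 for Klf3. At 12 h it was 0.62 for Klf13, 0.85 for Klf10, -0.65 for Klf7 and -0.56 for Klf3. The Klf10 call at 12 h depended on single libraries, with differences of 0.54 to 1.16 when 1 was left out. Klf7 reads may include those of the overlapping Gm26649. Groups of 2 libraries are too small for a check of single outlying libraries.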

How the results depend on the processing

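Of 124 calls among 230 tests of members, none changed direction under any alternative tried. With no filter or a pseudocount of 8, 0 were lost. Quantile normalization lost 3, equal library totals 6, fitting only the groups compared 5, and leaving out 1 library 22. Equal totals moved the median of all genes by -0.374 at 2 h and -0.214 at 6 h of serum and by -0.117 at 6 h of E2F1. The replicate numbers do not pair the libraries by label. Same-numbered deviations correlated at -0.28 to 0.45 over 55 group pairs (median 0.03), and a replicate block lost 0 calls. A replicate block within each line left 1 member with doxycycline alone at 2 h. Requiring at least a 2-fold change left 0, 4 and 2 members for E2F1 at 2, 6 and 12 h, 0 and 0 for doxycycline alone at 2 and 6 h, and 3 for serum at 12 h. It left 4, 3 and 5 for serum against doxycycline, 2 and 0 for E2F1 minus EV at 6 and 12 h, 5 and 3 for E2F1 minus serum at 2 and 6 h, 3 and 2 for serum between 2 and 6 h and 6 and 12 h, 0 for E2F1 between 6 and 12 h, and 1 between the lines at 0 h. With only the groups compared, 6 were called for E2F1 at 2 h, 0 for doxycycline alone at 6 h and 5 for E2F1 between 2 and 6 h. The last was 5 with quantile normalization and 7 with equal totals. Doxycycline alone at 2 h gave 4 with a pseudocount of 8 and 5 with quantile normalization. Leaving out 1 library gave 0 to 2 for E2F1 at 2 h, 1 to 2, 0 to 1 and 1 to 2 for doxycycline alone at 2, 6 and 12 h, and 1 to 3 between the lines. Where a group was left with 1 library, limma took its spread from the other groups. The uncalled Klf4 difference between the lines turned negative at 6 h with quantile normalization (-0.16), equal totals (-0.06) and left-out libraries (0.00, -0.08 and -0.16, within a range of -0.16 to 0.27), and at 12 h likewise (-0.15, -0.03, and -0.01, -0.10 and -0.23, within -0.23 to 0.30). That of Klf11 at 6 h passed without the 2 h libraries (limma, adjusted p = 0.0152), an alternative added after the data were seen. Over the scalings and fits tried, its limma adjusted p ran from 0.00368 to 0.0862 at 6 h. At 12 h it ran from 0.0477 to 0.327. The pass of Klf11 at 6 h was therefore not confined to leaving out the 2 h libraries, and it depended on the scaling or fit. Except where stated, the cause was not tested.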
